A study of Saccharomyces cerevisiae with 3 samples.

Results

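The histone genes of Saccharomyces cerevisiae were compared between cells that made the transcription factor War1K762R and cells that made War1. The 10 genes were taken by name from the array's platform table, not by their measured values, out of 5543 genes that the table names. They are the 8 core genes HTA1 and HTA2 (H2A), HTB1 and HTB2 (H2B), HHT1 and HHT2 (H3) and HHF1 and HHF2 (H4), the variant gene HTZ1 (H2A.Z) and the linker gene HHO1 (H1). Each had 2 spots, 20 of the 11146 named spots, and all 10 were measured on each of the 3 arrays, as were 3579 genes in all.

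Both strains were of the W303 background, W303-1A where a label gives it. In each the GAL1 promoter, which galactose switches on, drove WAR1, and the strains differed in whether this gene encoded War1 or War1K762R, by its name a lysine to arginine exchange. The labels do not say whether WAR1 was also present at its own locus. The cultures of both strains grew at 30 °C in rich medium with 2% raffinose to an OD600 of 0.8 and were harvested 1 h after 2% galactose was added, with no weak acid named. Cy3- and Cy5-labelled cDNA of 1 culture of each strain was hybridised to each of 3 two-colour arrays. By the source names, the Cy5 channel held War1K762R in replicates 1 and 2, and replicate 3 was the dye swap, with War1K762R in Cy3. A treatment label on the Cy3 side of replicates 1 and 2 also names the mutant gene, against the source names, which were followed here. The design text calls the arrays biological repeats.

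All values are log2 ratios of War1K762R over War1, with each array's median over its spots set to 0. This direction is likely and not certain, because it takes the scanner's ratio to be Cy5 over Cy3, which is unstated. With the inverse formula all signs turn, while sizes and tests stay. The rounding of the deposited values fits a ratio with 3 decimals in replicates 1 and 2 as they stand (100% of 9077 and 9945 values near 0) and in replicate 3 only after a change of sign (100% of 6685 values, against 9.95% as it stands), so replicate 3 was read as already turned. Values were missing for 5.97%, 7.23% and 43.6% of the 13056 spots in replicates 1, 2 and 3. WAR1 (YML076C), whose spots read both forms, had ratios of 0.74, 0.12 and 0.19 and did not pass the test (mean 0.35 ± 0.34, SD, n = 3, adjusted p = 0.32, limma).

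Histones package DNA into nucleosomes, whose core holds H2A, H2B, H3 and H4. In budding yeast the core genes lie in divergent pairs, each with an H2A and an H2B gene or an H3 and an H4 gene on both sides of a shared promoter region. They are transcribed mainly in S phase, activated through Spt10 and Spt21 and by the cell cycle factor SBF, and held back outside S phase, at most of the pairs, by the HIR complex. H2A.Z is placed into nucleosomes beside promoters by the SWR1 complex, and Hho1 is the yeast relative of linker histone H1. In an RNA extract from a mixed culture, fewer cells in S phase and less histone RNA per S phase cell cannot be told apart.

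No histone gene passed the test over the 3 arrays. The count was 0 of 10 at an adjusted p of 0.05 (limma against 0, Benjamini-Hochberg over 3579 genes), where 0.363% of all genes tested passed. At an unadjusted p under 0.05 it was also 0 of 10, where 13.8% of all genes tested lay. The 10 mean ratios ran from −0.21 for HHF2 to 0.15 for HTZ1, and their median was −0.067, against 0.049 for all genes tested. Of the 10 means 9 were negative, where 40.0% of all genes tested had a negative mean. After centring, none of the 10 genes had the same sign on all 3 arrays (13.5% of all genes tested were negative and 24.7% positive on all 3). This depends on the centring: as deposited, HHF2 was negative on all 3, at −0.24, −0.020 and −0.38.

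The 2 H2A genes encode proteins that are nearly the same. HTA1 (YDR225W) had ratios of 0.23, −0.082 and −0.24 in replicates 1, 2 and 3, a mean of −0.033 ± 0.24 (SD, n = 3, adjusted p = 0.931, limma). HTA2 (YBL003C) had 0.26, −0.13 and −0.42, a mean of −0.097 ± 0.34 (adjusted p = 0.801, limma). Both were above the array median in replicate 1 and below it in the other two, lowest in the dye swap.

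The H2B genes followed the same order of arrays. HTB1 (YDR224C) had ratios of 0.28, −0.16 and −0.34, a mean of −0.074 ± 0.32 (SD, n = 3, adjusted p = 0.852, limma). HTB2 (YBL002W) had 0.34, −0.22 and −0.24, a mean of −0.040 ± 0.33 (adjusted p = 0.921, limma). The range of each gene over the arrays, 0.62 and 0.58, was many times its mean.

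The H3 genes, whose proteins have the same sequence, were also positive in replicate 1 alone. HHT1 (YBR010W) had ratios of 0.16, −0.16 and −0.21, a mean of −0.067 ± 0.20 (SD, n = 3, adjusted p = 0.847, limma). HHT2 (YNL031C) had 0.35, −0.14 and −0.37, a mean of −0.052 ± 0.37 (adjusted p = 0.906, limma). HHT1 had the smallest and HHT2 the largest spread between arrays of the 10 genes.

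The H4 genes, whose proteins also share 1 sequence, had the lowest means of the 10. HHF1 (YBR009C) had ratios of −0.11, 0.079 and −0.54, a mean of −0.19 ± 0.32 (SD, n = 3, adjusted p = 0.573, limma), and was the 1 core gene that was negative in replicate 1 and positive in replicate 2. HHF2 (YNL030W) had 0.028, −0.18 and −0.47, a mean of −0.21 ± 0.25 (adjusted p = 0.504, limma). The place of HHF1 and the size of both means depended on the arrays used. Without replicate 1 HHF1 was at −0.23, above HTA2 at −0.27, while HHF2 was still the lowest, at −0.32. Without replicate 2 HHF1 and HHF2 were the lowest, at −0.32 and −0.22. Without replicate 3 they were at −0.014 and −0.076, nearer to 0 but still the lowest core genes.

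HTZ1 (YOL012C), the H2A.Z gene, had ratios of 0.47, 0.12 and −0.13, a mean of 0.15 ± 0.30 (SD, n = 3, adjusted p = 0.659, limma). It was the highest of the 10 genes in replicate 1, and its mean was the 1 positive mean. HHO1 (YPL127C), the linker histone gene, had −0.37, 0.22 and −0.049, a mean of −0.066 ± 0.30 (adjusted p = 0.865, limma). Its order of arrays was unlike that of the other genes, with the lowest value of the 10 in replicate 1 and the highest in replicates 2 and 3. CSE4 (YKL049C), which encodes the centromeric H3 variant, had −0.26 and −0.19 in replicates 1 and 2 and no value in replicate 3 (mean −0.23, adjusted p = 0.494, limma on genes with at least 2 arrays).

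**Figure D1:**
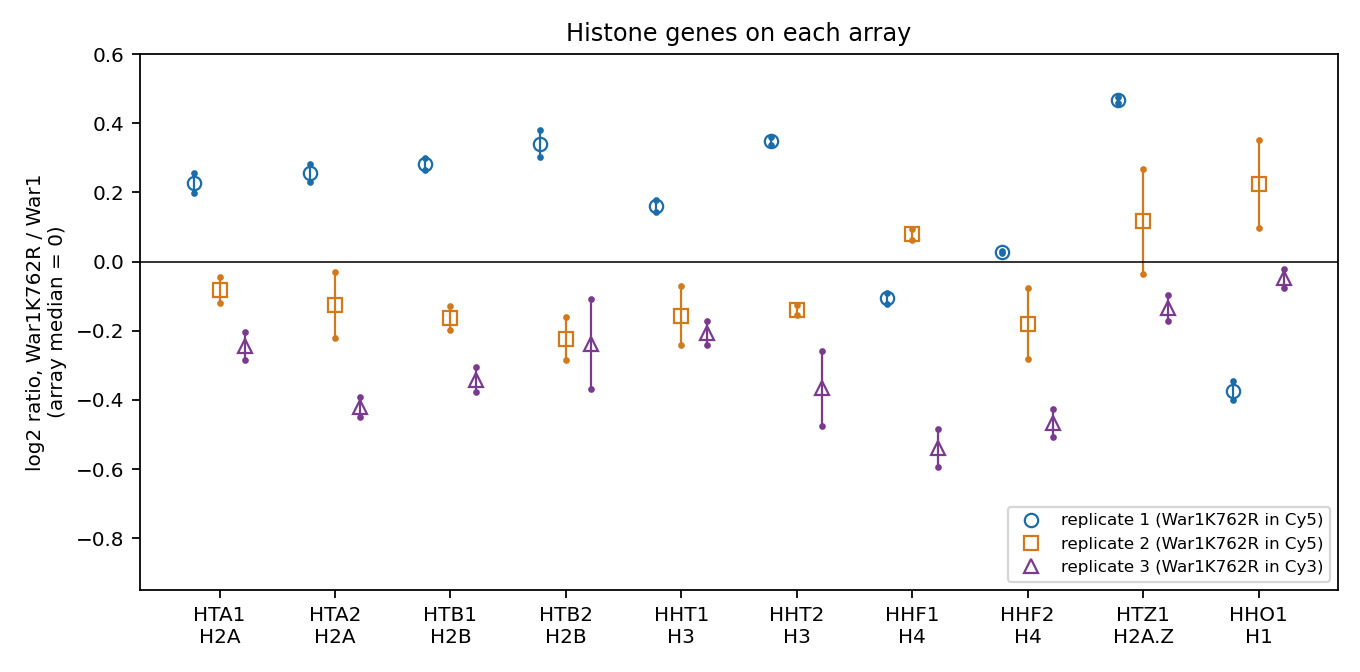
Log2 ratio of War1K762R over War1 for the 10 histone genes (x axis, with the histone each encodes) on the 3 arrays. Large open symbols are the mean of the 2 spots of a gene and small points joined by a line are the single spots. Of the 8 core genes 7 lie above 0 in replicate 1, 7 lie below 0 in replicate 2 and 8 lie below 0 in replicate 3.

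The intervals of the means describe the size of shift over the 3 arrays under the model, and are no firm bounds. In limma the variance of a gene is drawn towards that of all genes. The core genes had a median SD between arrays of 0.32, against 0.20 for all genes tested, so their intervals may be too narrow. For the 8 core genes the 95% intervals (limma, before any adjustment) ran from 1.42-fold lower, the limit of HHF1 and HHF2, to 1.22-fold higher, the limit of HTB2 and HHT2. The interval of HTZ1 ran from 1.12-fold lower to 1.38-fold higher, and that of HHO1 from 1.30-fold lower to 1.19-fold higher. All 10 intervals held 0. In the order of the means from HHF2 up to HTZ1, the largest gap between neighbours was 0.18, between HTA1 and HTZ1, and the next 0.092, between HHF1 and HTA2. Compared on each array, HTZ1 minus HTA1 was 0.24, 0.20 and 0.11, a mean of 0.18 ± 0.067 (SD, n = 3), the 1 neighbour pair of 9 whose difference was larger than its spread and had the same sign on all 3 arrays. Its p was 0.25 in an exact sign-flip permutation test (two-sided), the smallest that 3 arrays allow, and its adjusted p over the 9 pairs was 1. The other 8 neighbour pairs differed by less than the SD of their difference. Neighbours were formed by sorting the genes on these same means, which by itself makes small differences likely. HTZ1 minus HTA1 is the largest gap picked from that order, so the comparison is descriptive only.

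**Figure D2:**
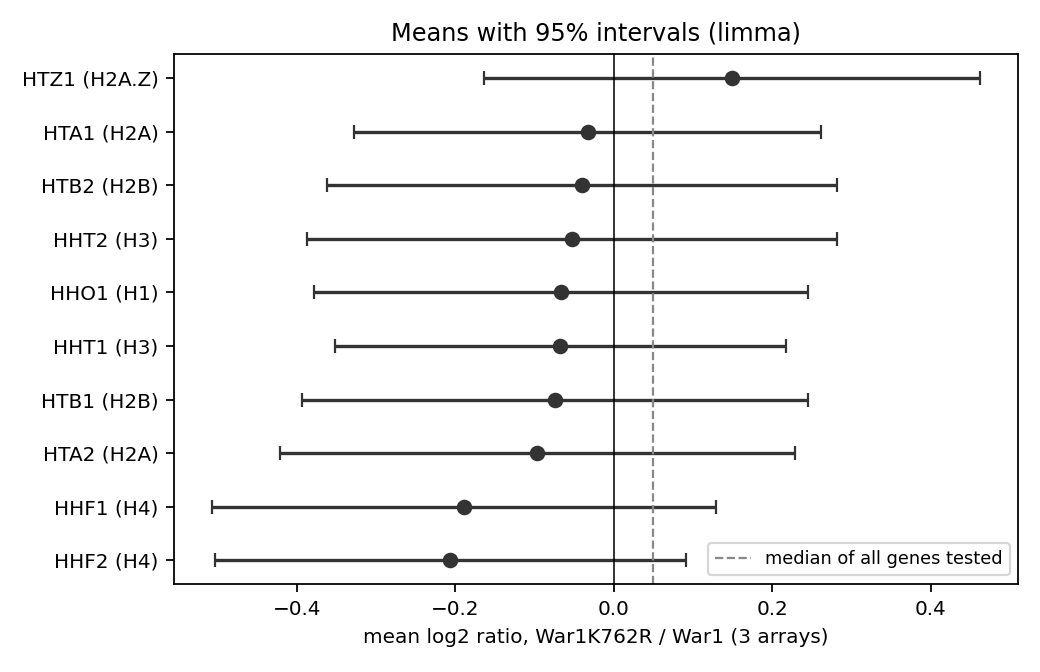
Mean log2 ratio of War1K762R over War1 over 3 arrays for each histone gene (points) with its 95% interval from limma (bars). The dashed line is the median of all genes tested, 0.049, and the solid line is 0, which lies inside each of the 10 intervals.

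The core genes varied more between the arrays than among themselves. Their mean was 0.19 in replicate 1, −0.12 in replicate 2 and −0.35 in replicate 3, a span of 0.55. Within an array the SD among the 8 genes was 0.16, 0.091 and 0.12. The SD between arrays of the core mean was 0.27. A single core gene had a median SD between arrays of 0.32, against 0.20 for all genes tested.

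The 2 spots of each gene give the spread within an array. In replicate 1 the spots of a histone gene differed by 0.0034 to 0.078, in replicate 2 by 0.028 to 0.30 and in replicate 3 by 0.055 to 0.26. The medians of these differences were 0.034, 0.15 and 0.078, against 0.086, 0.12 and 0.12 for all genes with 2 measured spots. The widest spot pair was that of HTZ1 in replicate 2, where 1 spot read 0.27 and the other −0.035. In replicate 3 it was that of HTB2, with −0.37 and −0.11. For HTB2 and HHT1 the spots differed in both replicates 2 and 3 by more than the gap between the values of those replicates. For HTZ1 they did so in replicate 2 alone.

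Among the genes tested, the core genes lay near the low end in the dye swap. In replicate 3 their percentiles ran from 1.49 for HHF1 and 2.67 for HHF2 to 20.6 for HHT1. In replicate 2 they ran from 11.0 for HTB2 to 53.0 for HHF1. In replicate 1 they ran from 27.3 for HHF1 to 83.5 for HHT2. HTZ1 was at percentiles 90.9, 58.1 and 29.4 in replicates 1, 2 and 3, and HHO1 at 5.35, 71.3 and 42.3. In replicate 3 all 10 genes were below 0, where 48.9% of all genes tested were.

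The centring of the arrays entered the signs of these values, but not their percentiles, which are ranks within an array. As deposited, before centring, the array medians were −0.27, 0.16 and 0.089, and the core mean was −0.077 in replicate 1, 0.036 in replicate 2 and −0.26 in replicate 3. On that scale the core genes ran from −0.37 to 0.081 in replicate 1 and from −0.063 to 0.24 in replicate 2, on both sides of 0, and from −0.45 to −0.12 in replicate 3. The number of core genes below 0 was 5, 3 and 8 of 8 as deposited and 1, 7 and 8 of 8 after centring, so the signs in replicates 1 and 2 depended on the centring and those in replicate 3 did not. Another large group of abundant transcripts, the cytosolic ribosomal protein genes, had medians of 0.13, −0.039 and −0.28 over 128 genes tested, beside 0.24, −0.15 and −0.35 for the 8 core histone genes. Whether signal strength or dye had a part in the array values of either group was not tested, and intensities were not used here.

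**Figure D3:**
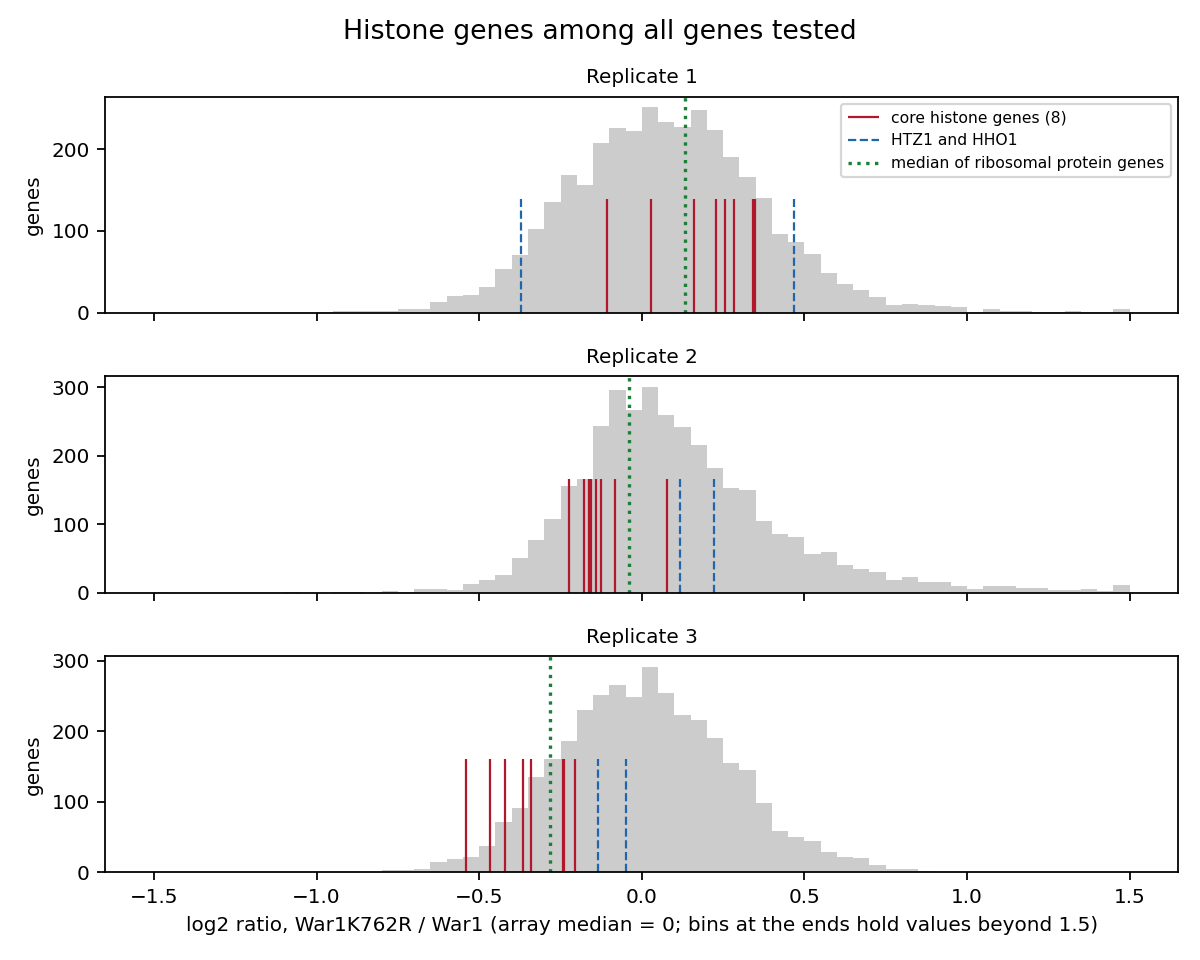
Distribution of the log2 ratios of the 3579 genes tested on each array (grey, number of genes per bin), with the 8 core histone genes (red lines), HTZ1 and HHO1 (blue dashed lines) and the median of the ribosomal protein genes (green dotted line). In replicate 1 all core genes but HHF1 lie above the array median, and in replicate 3 all 8 lie below it, the lowest, HHF1, at −0.54.

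The dye swap was the 1 array on which all 10 histone genes were below the array median. HHO1 was only a little below it, at −0.049 (percentile 42.3), and was above 0 as deposited, at 0.040. Over the 2 arrays with War1K762R in Cy5, the mean of a core gene ran from −0.076 for HHF2 to 0.10 for HHT2, and 6 of the 8 were positive. On the array with War1K762R in Cy3 the same genes ran from −0.54 to −0.21. HTZ1 was at 0.29 over the Cy5 arrays and −0.13 on the Cy3 array. Dye orientation and array cannot be told apart for replicate 3, since 1 array had that orientation. With a dye term in the model, which weights both orientations equally, 0 of 10 genes passed, the lowest adjusted p was 0.409 (HHF1, limma) and the means of HHF1 and HHF2 were −0.28 and −0.27. Without replicate 3 the median of the 10 genes was 0.059 and 3 means were negative. Without replicate 1 it was −0.23 and 9 were negative. In both cases 0 of 10 passed.

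The genes of a divergent pair were compared with each other on each array, which asks whether genes beside 1 promoter region had the same ratio. In RefSeq's gene table (R64 assembly) the genes of all 4 pairs are neighbours. HTA1 minus HTB1 was −0.055, 0.082 and 0.098 in replicates 1, 2 and 3 (mean 0.042 ± 0.084, SD, n = 3). HTA2 minus HTB2 was −0.084, 0.097 and −0.18 (mean −0.056 ± 0.14). The sign changed between arrays in both H2A and H2B pairs.

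The H3 and H4 pairs had larger mean differences in size, but not larger ones on each array. HHT1 minus HHF1 was 0.27, −0.23 and 0.33 in replicates 1, 2 and 3 (mean 0.12 ± 0.31, SD, n = 3). HHT2 minus HHF2 was 0.32, 0.040 and 0.10 (mean 0.15 ± 0.15), the 1 pair of 8 with the same sign on all 3 arrays. In an exact sign-flip permutation test (two-sided), where 3 arrays allow no p below 0.25, HHT2 minus HHF2 had p = 0.25 and the other divergent pairs p = 0.5 to 0.75, with adjusted p = 0.857 over the 8 pairs.

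The H4 genes also stood apart from the 6 H2A, H2B and H3 genes on some arrays, a pattern chosen after its values were seen and given with no test. In replicate 1 HHF1 and HHF2 were at −0.11 and 0.028, below the lowest of the 6, HHT1 at 0.16. In replicate 3 they were at −0.54 and −0.47, below the lowest of the 6, HTA2 at −0.42. In replicate 2 HHF1, at 0.079, was above the highest of the 6, HTA1 at −0.082, and HHF2 was among them. The mean of the H4 genes minus that of the 6 was −0.31, 0.098 and −0.20 on the arrays, −0.14 ± 0.21 over the 3 (SD, n = 3).

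Copies of a histone are close in sequence, so labelled cDNA of 1 copy may bind the spots of the other, and values of copies are not independent. Probe sequences were not used here. The copies HTA1 and HTA2 differed by −0.029, 0.044 and 0.18 in replicates 1, 2 and 3 and HTB1 and HTB2 by −0.058, 0.059 and −0.10, first minus second. HHT1 minus HHT2 was −0.19, −0.017 and 0.16. The mean differences of the 4 copy pairs ran from −0.034 ± 0.084 for the H2B genes to 0.064 ± 0.10 for the H2A genes (SD, n = 3, exact sign-flip permutation test, adjusted p = 0.857 to 1).

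The copies of H4 had the widest single difference of the copy pairs. In replicate 2 HHF1 minus HHF2 was 0.26, with spots of 0.094 and 0.063 for HHF1 and of −0.076 and −0.28 for HHF2, so that the spots of the 2 genes did not overlap. In replicates 1 and 3 it was −0.13 and −0.072, of the opposite sign, and the mean was 0.018 ± 0.21 (SD, n = 3, exact sign-flip permutation test, p = 1).

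**Figure D4:**
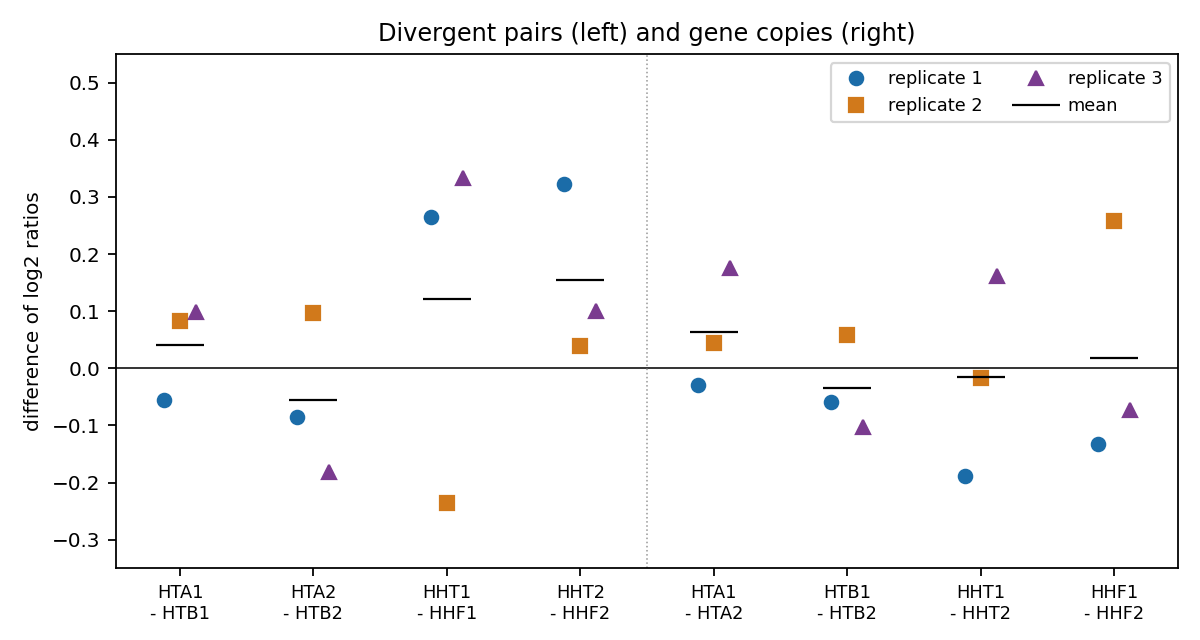
Difference of the log2 ratios of 2 histone genes on each array, first gene minus second, for the 4 divergent pairs (left of the dotted line) and the 4 pairs of gene copies (right). Symbols are the 3 arrays and horizontal bars their means. HHT2 minus HHF2 is above 0 on all 3 arrays and the other 7 pairs have both signs.

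The genes whose 3 ratios were most like the mean profile of the 8 core genes (0.19, −0.12 and −0.35) were found by the root mean square difference over the 3 arrays. The 5 nearest genes that are no histone gene were KTR5 (YNL029C) at 0.028, YGL235W at 0.029, ERP4 (YOR016C) at 0.036, RPL42B (YHR141C) at 0.039 and RPL38 (YLR325C) at 0.040. KTR5, a putative mannosyltransferase gene, had ratios of 0.15, −0.10 and −0.33 and is the neighbour of HHF2 in RefSeq's gene table. RPL42B and RPL38 encode proteins of the large ribosomal subunit and had 0.16, −0.096 and −0.40, and 0.26, −0.097 and −0.37. By the same measure HTA2, the nearest core gene, was at 0.054, with 12 genes nearer to the profile, and HHF1, the farthest core gene, at 0.23, with 841 genes nearer. HTZ1 and HHO1 were at 0.25 and 0.42, so many other genes followed the core profile over these 3 arrays more closely than they did.

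Genes that control histone genes or handle histone proteins had few values on replicate 3. Of 12 regulators of histone genes 6 were tested over 3 arrays and 0 passed. ASF1, an H3 and H4 chaperone that works with the HIR complex, had a mean of −0.17 ± 0.13 (SD, n = 3) and HIR3, a HIR subunit gene, 0.11 ± 0.11. Of 14 genes for histone chaperones and for acetylation of new histones 9 were tested and 0 passed. The transcription elongation factor and chaperone gene SPT6 had a mean of 0.33 ± 0.41 and SPT16, a subunit gene of the FACT chaperone, 0.24 ± 0.085. POB3, the gene of the partner of Spt16 in FACT, was at −0.24 ± 0.11 and negative on all 3 arrays while SPT16 was positive on all 3, and was named after its values were seen. Of 13 genes of the SWR1 complex 5 were tested and 0 passed. The helicase genes RVB1 and RVB2 were at −0.16 ± 0.20 and −0.11 ± 0.12, RVB2 negative on all 3 arrays. The gene SWR1 itself, named after its values were seen, was at 0.098 ± 0.050 and positive on all 3.

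Genes of the cell cycle phases were read beside the histone genes. Of 22 DNA replication genes 9 were tested over 3 arrays, with a median of −0.058, and 0 passed. POL12, of DNA polymerase alpha, was at −0.24 ± 0.026 (SD, n = 3), negative on all 3 arrays, and the flap endonuclease gene RAD27 at −0.24 ± 0.37. POL3, RFA2 and RFA3 had positive means, 0.17 ± 0.23, 0.16 ± 0.45 and 0.035 ± 0.20, and were named after their values were seen. The means of the other tested replication genes were negative. Of 5 genes for G1/S cyclins 3 were tested and 0 passed, with PCL1 at −0.13 ± 0.18 and CLB6 at −0.064 ± 0.37. Of 7 G2/M genes 4 were tested and 0 passed, with the transcription factor gene SWI5 at 0.17 ± 0.12 and CDC20, an activator gene of the anaphase-promoting complex, at 0.097 ± 0.24.

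Among 7 M/G1 genes 6 were tested, with a median of 0.19, and 0 passed. At an unadjusted p under 0.05 were 3 of the 6, all higher (limma), where 13.8% of all genes tested lay, and the same count was positive on all 3 arrays. The endochitinase gene CTS1 was at 0.41 ± 0.37 (SD, n = 3) and ASH1, a repressor gene of mating type switching, at 0.36 ± 0.28 (adjusted p = 0.27 and 0.29, limma), and the cell wall protein gene EGT2, the third, at 0.32 ± 0.23 (adjusted p = 0.318, limma). The rest of the 6, PCL9, RME1 and SIC1, lay near 0, at 0.064 ± 0.12, −0.038 ± 0.078 and −0.016 ± 0.18. The median of 0.19 thus lies between these genes and the higher ones. The other lists of regulators, chaperones, the SWR1 complex and the cell cycle had 0 genes at an unadjusted p under 0.05 over 3 arrays. The array medians of the replication genes were 0.074, −0.18 and 0.018 and those of the M/G1 genes 0.053, 0.21 and 0.16, where the core histone genes had 0.24, −0.15 and −0.35. The part of the cell cycle in the values of the histone genes was not tested.

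The genes of these lists with values on at least 2 arrays could be tested in a second fit over 5479 genes, in which 0 of the 10 histone genes passed and 2.14% of all genes did (1.22% higher and 0.913% lower). Of the 12 regulators, 1 passed as lower, HIR1 (YBL008W), a subunit gene of the HIR complex that represses histone genes. It had ratios of −0.66 and −0.86 in replicates 1 and 2 (mean −0.76, adjusted p = 0.0332, limma). HIR2, of the same complex, had −0.0053 and 0.040 on these arrays (mean 0.018, adjusted p = 0.962, limma). Of the 22 replication genes 2 passed as lower and 0 as higher. CDC45 (YLR103C), a component gene of the replicative helicase, had −1.65 and −0.87 (mean −1.26, adjusted p = 0.0075, limma), and POL32 (YJR043C), a subunit gene of DNA polymerase delta, −0.75 and −0.84 (mean −0.79, adjusted p = 0.0281, limma). HIR1, HIR2, CDC45 and POL32 were named after their values were seen, and 0 genes passed among the chaperones, the SWR1 complex and the cell cycle lists.

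The 3 calls, of HIR1, CDC45 and POL32, rest on the 2 arrays with War1K762R in Cy5, so the dye swap does not bear on them. Genes measured on those arrays alone lay lower as a whole, with a median of −0.12 over 1896 genes, against 0.082 on the same arrays for the 3579 genes measured on all 3. In a limma fit without replicate 3, 34 of 5475 genes passed as lower. In a separate fit on the same 2 arrays, of only the 3579 genes measured on all 3 arrays, 1 passed as lower. How many of the 34 are among the 3579 genes was not counted. The share of 0.913% lower may therefore be too low a background for these 3 calls. The share among genes measured on those arrays alone was not counted. On the same 2 arrays SPT21 (YMR179W), an activator gene of histone transcription, had −0.41 and −0.73 and did not pass (adjusted p = 0.103, limma). It was likewise named after its values were seen.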

How the data were processed

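The deposited values are log2 ratios of the channels of each array, 1 for each spot. Of the authors' processing, neither scanner, formula, filter of spots nor normalization is stated in labels or file, and intensities were not used here. Spots were named from the platform's probe table: 11146 had 1 symbol, 0 several and 1910 none. Names and neighbours came from the RefSeq table of the R64 assembly. No source names the build of the array, and coordinates are left out.

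Each array was centred on its spot median, spots of a gene were averaged, and the mean ratio of genes with values on all 3 arrays was tested against 0 with limma 3.58.1 in R 4.3.3 (lmFit, eBayes, two-sided, Benjamini-Hochberg over all genes, threshold 0.05). The test was run first on simulated data with effects far larger than the histone means, which does not show whether shifts of their size would be found. Replicate 3 was used as deposited. Alternatives changed the centring, missing-value filter, spot averaging, dye term, array weights, scale, direction of replicate 3 and replicates used. SDs given with n = 3 are between arrays, whose number limits the precision.

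Named were all histone genes, CSE4, of each other list the genes past the threshold or otherwise the 2 with the largest means in size, and the 5 genes nearest the core profile. Other genes, named after their values were seen, are marked so in the text or complete a count. Members and lists were chosen with earlier results of these data known.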

Additional observations from a re-analysis of the deposited data

How the results depend on the processing

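In each of 12 other settings 0 of the 10 histone genes passed (limma), 0 had an unadjusted p under 0.05, and adjusted p ran from 0.376 to 0.997. Of 120 means of single genes under these settings 97 kept their sign and 23 did not. This count is no measure of stability, since the filter at 2 arrays and the use of single spots cannot change these means. The settings without replicate 3, on all genes and on the same genes, also hold equal means, so their changes of sign are counted again. The median of the 10 histone genes, −0.067, ran from −0.12 to −0.067 under other centrings, filters, spots, a dye term, weights and scaling. It ran from −0.23 to 0.059 when 1 replicate was left out. The sign of most core genes rests on replicate 3. Without it, on all genes or on the same genes, HTA1, HTA2, HTB1, HTB2, HHT1 and HHT2 had 0.073, 0.065, 0.059, 0.059, 0.0019 and 0.10. Leaving out each replicate in turn gave ranges of −0.16 to 0.073 for HTA1, −0.27 to 0.065 for HTA2, −0.25 to 0.059 for HTB1, −0.23 to 0.059 for HTB2, −0.18 to 0.0019 for HHT1, −0.25 to 0.10 for HHT2, −0.32 to −0.014 for HHF1, −0.32 to −0.076 for HHF2, −0.0090 to 0.29 for HTZ1 and −0.21 to 0.087 for HHO1. With replicate 3 turned once more, HTA1, HTA2, HTB1, HTB2, HHT1, HHT2, HHF1 and HHF2 had 0.13, 0.18, 0.15, 0.12, 0.070, 0.19, 0.17 and 0.11 and the median was 0.14. Of the pair differences, HTA2 minus HTB2 was 0.0093 on first spots and −0.13 to 0.0064 over the replicates left out. HTB1 minus HTB2 was −0.081 to 4e-04, HHT1 minus HHT2 0.064 on second spots and −0.10 to 0.072, and HHF1 minus HHF2 −0.010 on first spots and −0.10 to 0.093. The cause of these changes was not tested. Over all genes, 12 were higher and 1 lower. The higher count was 3 with centring on the genes tested, 25 without centring, 4 on single spots, 2 with a dye term and 24 with array weights. It was 67 with 50 lower on at least 2 arrays, where more genes were tested, 0 with 0 lower with replicate 3 turned, and 1 to 46, with 1 to 34 lower, over the replicates left out. The 46 and 34, without replicate 3, come with more genes tested, and with the genes kept fixed it was 15 higher and 1 lower. The ratio of each array already pairs the strains, so no further replicate block could be fitted. Spots not measured in replicate 3 limit the genes tested.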
